A study of Mus musculus with 6 samples.

Results

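KDEL receptors and Golgi tethers are the machinery that returns escaped residents of the endoplasmic reticulum (ER) from the Golgi and holds the Golgi in shape. The 10 genes described here are the retrieval receptors Kdelr1, Kdelr2 and Kdelr3, the golgins Golga2 and Golgb1, the stacking proteins Gorasp1 and Gorasp2, the tether Uso1, the GTPase Arf1 and its exchange factor Gbf1. They were chosen by symbol, and all 10 had a row among the 18437 genes of the deposited table. All 10 also passed the filter on low values, which kept 16042 genes. RNA was sequenced from isolated pancreatic islets, which hold the insulin-secreting beta cells, of male mice aged 30 weeks. The groups were 3 libraries from Sec16b+/+ mice (wild type) and 3 from Sec16b-/- mice (knockout), with no other allele or treatment named. Sec16b encodes a scaffold of ER exit sites, where cargo leaves the ER in COPII-coated vesicles. The labels do not say how the allele was made, which cells lack the gene, or whether the libraries are from different animals. Every p-value therefore measures the spread between these libraries, which may be technical.

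Soluble ER proteins carry a short carboxy-terminal signal, KDEL or a variant of it. In the cis-Golgi the KDEL receptors bind this signal and return the proteins to the ER in COPI-coated vesicles. Arf1, loaded with GTP by Gbf1, recruits the COPI coat. The golgins GM130 (Golga2) and giantin (Golgb1) and the tether p115 (Uso1) are long coiled-coil proteins that capture vesicles, and the GRASP proteins (Gorasp1, Gorasp2) link Golgi cisternae. Beta cells send large amounts of proinsulin along this route.

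Facts of the whole series come first. The libraries held 22071895 to 26806787 recovered reads each. Values are normalized read counts, the reads of a gene divided by a size factor of its library. Sec16b had values of 1655, 773 and 1786 in the wild type (replicates 1 to 3 in order) and 553, 433 and 750 in the knockout. Its log2 fold change was −1.22 (SE 0.35, limma adjusted p = 0.993), with no overlap between genotypes. The transcript was thus still counted in every knockout library, and which part of the gene those reads cover is not shown by gene counts. The 8 beta cell markers, insulin genes included, took 11.4% to 15% of wild type reads and 9.31% to 14.7% of knockout reads, so the islet label fits the markers. Of 20 tested markers of acinar cells, the enzyme-secreting cells around the islets, 19 had a positive log2 fold change, and their summed share was 1.02% to 5.04% in wild type and 0.676% to 15% in knockout libraries. Knockout replicate 1 had the highest acinar share and knockout replicate 3 the lowest. All 8 beta cell markers had a negative log2 fold change (median −0.13, none called). All 6 tested lymphocyte markers had a positive one, with a summed share of 0.00142% to 0.102% in wild type and 0.0331% to 0.535% in knockout libraries. The log2 fold change was also positive for 4 of 4 alpha cell markers (median 0.36), 3 of 4 delta and PP cell markers (median 0.32) and 5 of 6 endothelial markers (median 0.26). None of these was called, and 2 delta and PP and 2 endothelial markers had an unadjusted p under 0.05 in limma. In bulk tissue, fewer cells of a type and less RNA per cell cannot be told apart.

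Of the 10 genes, 9 had a lower mean in the knockout libraries, with differences of −14% to −6.85% of the wild type mean, and none passed the test. Kdelr3 was the exception, with a mean 1.18% higher. Limma, fitted on log2(value + 1) over all genes, called 0 of the 10 at an adjusted p under 0.05, where it called 0% of the 16042 genes. No member had an unadjusted p under 0.05, where 494 genes did. EdgeR's quasi-likelihood test on the recovered reads also called 0 members (0% of genes), with 0 members and 509 genes at an unadjusted p under 0.05. DESeq2's Wald test called 0 members, where it called 0.114% of the genes with an adjusted p, and it had 0 members and 603 genes at an unadjusted p under 0.05. A negative log2 fold change was found for 50.6% of all genes tested, and for 64.6% of the 4800 genes with a mean normalized count of 1000 or more. The other 9 members are among those 4800 genes, all with a negative value, and Kdelr3 is below that level. The median log2 fold change was −0.17 over the 10 members, −0.05 over those 4800 genes and −0.00 over all genes tested.

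**Figure D1:**
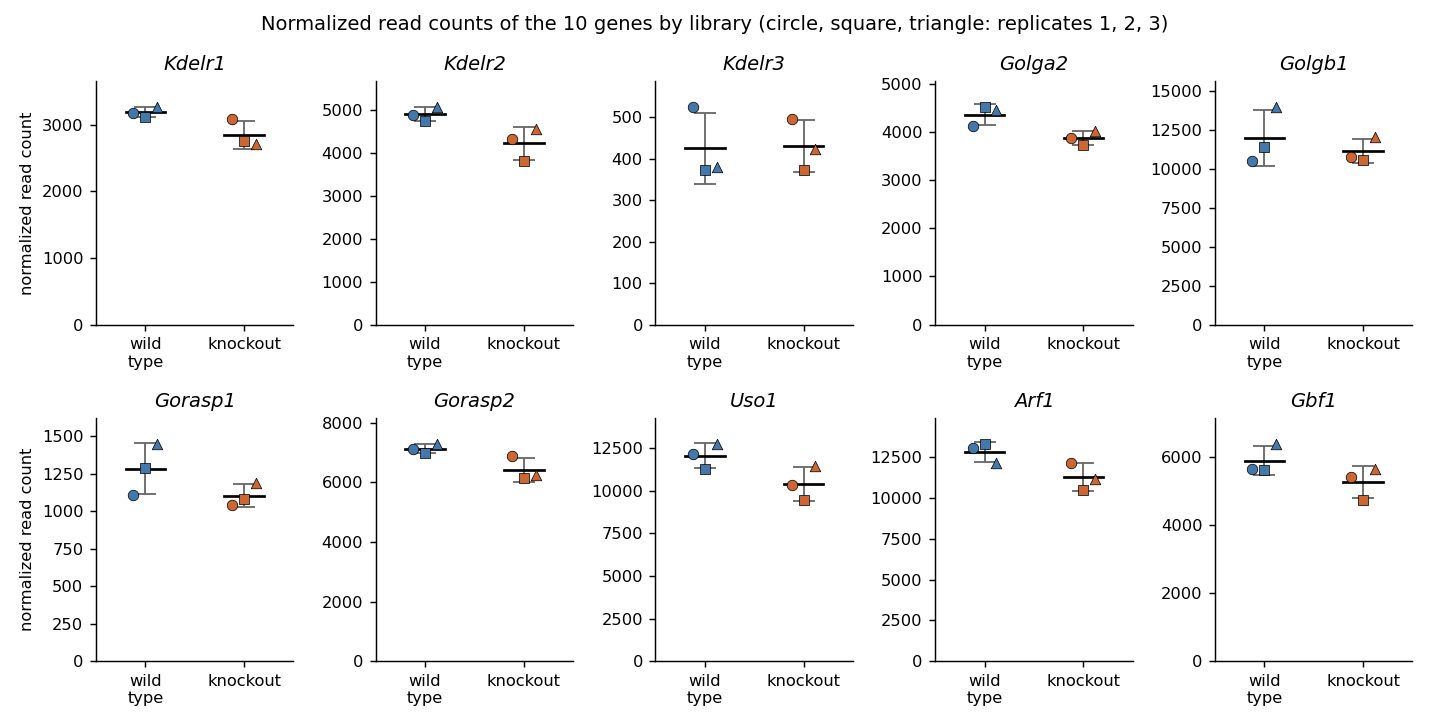
Normalized read counts (vertical axes, from 0) of the 10 genes in the wild type and knockout libraries, with circles, squares and triangles for replicates 1, 2 and 3, the mean as a bar and the SD as whiskers. The 3 knockout points of Kdelr1, Kdelr2, Golga2 and Gorasp2 lie below the 3 wild type points, and in the other 6 genes the groups overlap.

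In 4 genes, Kdelr1, Kdelr2, Golga2 and Gorasp2, every knockout value lay below every wild type value. That pattern was found in 5.22% of all genes tested and in 9.29% of the 4800 genes with a mean of 1000 or more. The opposite pattern was found in 0 members and in 618 of the 16042 genes tested.

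The promoters of the members were searched for motifs, and a link between motifs and fold changes was not tested. Members with 1 or both of the first 2 motifs described next were Kdelr3 (log2 fold change 0.03), Gbf1 (−0.16), Arf1 (−0.19) and Uso1 (−0.22). Those with neither were Kdelr1 (−0.16), Golga2 (−0.17), Gorasp1 (−0.21) and Gorasp2 (−0.15). RefSeq promoters of build GRCm38.p6, 250 bases before to 50 after a start site, were matched by symbol for 8 members, and Kdelr2 and Golgb1 had none in the table. The UPRE core, the letters TGACGTGG, known as a binding site of the unfolded protein response factor Xbp1, was found on either strand in Kdelr3, Gbf1 and Arf1, and in 0.676% of 32851 promoters. The letters ACGTGGC of the Golgi stress element were found in Kdelr3, Arf1 and Uso1, and in 2.58% of promoters. In Kdelr3 and Arf1 both motifs share the same bases. The stretches below run 5′ to 3′ along the gene and end at the base before the start site, except for Arf1. Capitals mark the UPRE core in Kdelr3, Gbf1 and Arf1 and the Golgi stress element in Uso1, read on the opposite strand in all but Arf1. Kdelr1 is shown as the receptor in which no motif searched was found. They lie at chr15:79516288-79516407 (Kdelr3, plus strand), chr19:46152438-46152557 (Gbf1, plus), chr5:92137818-92137937 (Uso1, plus), chr11:59228228-59228257 (Arf1, minus) and chr7:45872720-45872839 (Kdelr1, plus).
Kdelr3: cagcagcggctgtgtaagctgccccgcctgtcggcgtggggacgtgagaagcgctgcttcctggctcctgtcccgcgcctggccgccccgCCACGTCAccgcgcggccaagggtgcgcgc
Gbf1: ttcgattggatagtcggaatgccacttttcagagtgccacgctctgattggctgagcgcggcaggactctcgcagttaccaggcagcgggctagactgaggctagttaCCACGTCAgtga
Uso1: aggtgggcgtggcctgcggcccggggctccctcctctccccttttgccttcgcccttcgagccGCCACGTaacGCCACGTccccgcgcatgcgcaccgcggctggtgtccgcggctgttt
Arf1: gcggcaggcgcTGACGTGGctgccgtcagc
Kdelr1: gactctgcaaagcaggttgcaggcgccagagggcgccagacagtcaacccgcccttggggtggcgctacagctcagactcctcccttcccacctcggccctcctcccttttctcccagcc

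The UPRE core began 30 bases before the start site in Kdelr3 and 12 before it in Gbf1. In Arf1 the same copy lay 84 bases before one annotated start and 22 bases into the transcript of another. Uso1 held a pair of Golgi stress elements, which began 47 and 57 bases before its start. The ER stress response element, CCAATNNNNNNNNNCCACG, was found in 0 of the 8 members and in 0.119% of promoters. It was found in 5 of 16 genes with a promoter from a list of ER proteins taken to carry the KDEL signal. These 5 were Calr, Creld2, Hsp90b1, Hspa5 and Pdia6, and the signal itself was not checked for any listed protein. Among the same 16, the Golgi stress element was found in 4 (Calu, Fkbp14, P4hb and Txndc5) and the UPRE core in 1 (Txndc5). ATTGGNCCACG (a second ER stress element, 0.0365% of promoters), TGACGTCA (the cAMP response element, 1.79%) and TCACGTGA (the lysosomal CLEAR core, 0.974%) were found in 0 members. CACGTG, the E-box, was found in Gorasp1 and Uso1 (7.15% of promoters), and the CCACG half-site, which both ER stress elements and the opposite strands of the UPRE core and Golgi stress element contain, in 7 of 8 members (32.8%). Among the 16 listed genes of ER proteins, 13 held the CCACG half-site, 2 the E-box and 1 the CLEAR core. The second ER stress element and the cAMP response element were found in 0 of them. The 8 motifs were picked with the members known, and a match in letters is a description, not a bound site.

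By value, Kdelr2 was the highest of the receptors and Kdelr3 the lowest. Kdelr2 had normalized counts of 4881, 4747 and 5062 in the wild type (replicates 1 to 3 in order) and 4330, 3799 and 4547 in the knockout. The wild type libraries lay within a narrow band above all knockout libraries, and knockout replicate 2 was lowest. The wild type mean was 4896 ± 158 and the knockout mean 4225 ± 385 (SD, n = 3 each), a log2 fold change of −0.22 (SE 0.10, 95% interval −0.45 to 0.01, limma adjusted p = 0.993). An exact permutation test over the libraries (two-sided) gave p = 0.1, the smallest that 3 libraries against 3 can give. Without knockout replicate 2 the log2 fold change was −0.14.

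Kdelr1 encodes a closely related receptor of the same retrieval cycle. It had values of 3174, 3117 and 3261 in the wild type (replicates 1 to 3 in order) and 3079, 2751 and 2705 in the knockout. The groups were apart by a small margin, since knockout replicate 1 lay just under wild type replicate 2. The log2 fold change was −0.16 (SE 0.09, 95% interval −0.37 to 0.04, limma adjusted p = 0.993), with an exact permutation p of 0.1.

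Kdelr3 had values of 524, 373 and 379 in the wild type (replicates 1 to 3 in order) and 496, 373 and 423 in the knockout. The groups overlapped entirely, and the high libraries were replicate 1 of each genotype. These were also the libraries with the largest acinar share of their genotype, 5.04% in wild type and 15% in knockout. The lymphocyte share was also largest there, at 0.102% in wild type, where the other libraries had 0.00142% and 0.00336%, and at 0.535% in knockout, where they had 0.0452% and 0.0331%. The part of the lymphocyte share in Kdelr3 was not tested. With the acinar level as a covariate the log2 fold change was −0.02 in place of 0.03 (SE 0.18, 95% interval −0.41 to 0.46, limma adjusted p = 0.994). Its sign was also negative with total-count scaling (−0.05) and when a library was left out, namely replicate 2 (−0.06) or 3 (−0.05) of the wild type or replicate 1 (−0.08) of the knockout, and it was 0.19 with wild type replicate 1 left out and 0.12 with knockout replicate 2 left out. Kdelr3 varied most of the members within genotypes, with an SD of 20.2% of the mean in wild type, where Kdelr1 had 2.28% and Kdelr2 3.23%. In the knockout these were 14.4% for Kdelr3, 7.16% for Kdelr1 and 9.11% for Kdelr2.

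The shares of Kdelr1 and Kdelr2 differed between genotypes by less than the SD among knockout libraries, and that of Kdelr3 by more than the knockout SD but less than the wild type SD. Per kilobase of exon, Kdelr2 made up 56.4%, 57.4% and 57.9% of the summed receptor value in the wild type libraries and 54.3%, 54.5% and 58.8% in the knockout libraries. The means were 57.2% and 55.9%, where the knockout SD was 2.54%. Knockout replicate 3 was above and the other knockout libraries below all wild type libraries. Kdelr1 made up 34.1% to 38.5% over the 6 libraries. Kdelr3 made up 6.44% ± 1.23 in wild type and 7.36% ± 0.605 in knockout libraries (SD, n = 3 each), and its groups overlapped. These shares are ratios within a library and do not depend on its size factor.

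Proteins taken to be retrieved by the receptors were compared at the transcript level from a list of 20 genes, 19 of them measured. The carboxy-terminal signals of these proteins were not checked. A log2 fold change below 0 was found for 50.6% of all genes tested and 64.6% of those with a mean of 1000 or more. Of the 19, 16 had a negative and 3 a positive log2 fold change, with a median of −0.29. Limma called 0, 7 had an unadjusted p under 0.05, all negative, where 218 of the 16042 genes were negative and under it. Every knockout value was below every wild type value in 8 of the 19, a pattern of 5.22% of all genes and 9.29% of those with a mean of 1000 or more. Creld2, an ER stress-inducible protein (−0.73, SE 0.15), Calr, calreticulin (−0.61, SE 0.15), Sdf2l1, a cochaperone (−0.42, SE 0.11), and Pdia6, a disulfide isomerase (−0.40, SE 0.12), had the smallest p on the log2 scale. Hsp90b1, the chaperone Grp94, had −0.59 (SE 0.18), Hspa5, the chaperone BiP, −0.29 (SE 0.33), and P4hb, protein disulfide isomerase, −0.09 (SE 0.17), all with an adjusted p of 0.993.

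The summed value of the 19 ligand genes per kilobase was 18.8, 23.2 and 23.5 times that of the receptors in the wild type libraries and 19.4, 20 and 17.2 times in the knockout libraries. Wild type replicate 1 lay among the knockout libraries, so the groups overlapped. The mean ratio was 21.8 ± 2.63 in wild type and 18.9 ± 1.47 in knockout libraries (SD, n = 3 each), with no test run. Receptor and ligand transcripts were both lower on average in the knockout libraries, and their ratio differed by about as much as it varied within wild type.

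**Figure D2:**
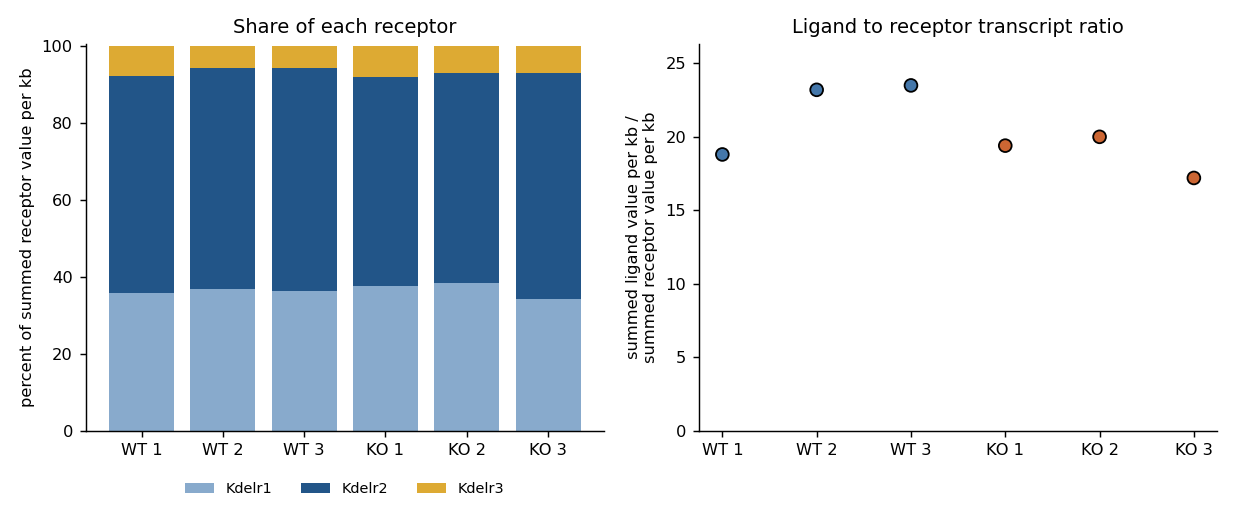
Left, the percent of the summed receptor value per kb of exon from Kdelr1, Kdelr2 and Kdelr3 in each library (WT, wild type; KO, knockout). Right, the summed value per kb of 19 ligand genes divided by that of the receptors, where wild type replicate 1 at 18.8 lies within the knockout range of 17.2 to 20.

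The golgins differed in how evenly they were expressed. Golga2, whose product GM130 anchors p115 at the cis-Golgi, had values of 4116, 4510 and 4444 in the wild type (replicates 1 to 3 in order) and 3874, 3726 and 4017 in the knockout. All knockout libraries were below all wild type libraries. Between genotypes the log2 fold change was −0.17 (SE 0.08, 95% interval −0.37 to 0.03, limma adjusted p = 0.993), and the exact permutation p was 0.1. Exons of Golga2 share 1.78% of their bases with the opposite-strand gene Swi5, and the strand setting of the counting is not given.

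Golgb1, giantin, had values of 10494, 11385 and 13951 in the wild type (replicates 1 to 3 in order) and 10775, 10578 and 12021 in the knockout. Wild type replicate 3 stood high and wild type replicate 1 was the lowest of all 6, so the groups overlapped. Its log2 fold change was −0.09 (SE 0.14, 95% interval −0.42 to 0.23, limma adjusted p = 0.993). Without wild type replicate 3 it was 0.02. Leaving out wild type replicate 1 gave −0.18, leaving out knockout replicate 3 gave −0.15, and total-count scaling gave −0.17. Golgb1 exons share 4.21% of their bases with Gm49599 and 0.961% with Gm49600, both on the same strand.

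The GRASP genes had means of similar relative difference, but only Gorasp2 was separated between genotypes. Gorasp2, GRASP55 of the medial Golgi, had values of 7114, 6993 and 7295 in the wild type (replicates 1 to 3 in order) and 6876, 6140 and 6234 in the knockout. The wild type values were the tightest of any member, with an SD of 2.13% of the mean, and knockout replicate 1 came closest to them. Limma's log2 fold change was −0.15 (SE 0.09, 95% interval −0.37 to 0.06, limma adjusted p = 0.993), with an exact permutation p of 0.1. Exons of Gorasp2 share 5.55% of their bases with Tlk1 and 4.46% with Gm26558, both on the opposite strand.

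Gorasp1, GRASP65 of the cis-Golgi, had values of 1111, 1291 and 1449 in the wild type (replicates 1 to 3 in order) and 1040, 1084 and 1188 in the knockout. Wild type replicate 1 lay below knockout replicate 3, so the groups overlapped, and the exact permutation p was 0.2. The log2 fold change was −0.21 (SE 0.12, 95% interval −0.50 to 0.08, limma adjusted p = 0.993). It was −0.31 without wild type replicate 1 and −0.12 without wild type replicate 3. The value of Gorasp1 is uncertain because 32.1% of its exon bases also belong to exons of the opposite-strand gene Wdr48. Counts of Gorasp2 exceeded those of Gorasp1 by 5.03 to 6.61 times, with the 2 genotypes overlapping.

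Uso1, the tether p115 that acts with Rab1 in capturing COPII vesicles, had values of 12161, 11284 and 12748 in the wild type (replicates 1 to 3 in order) and 10323, 9464 and 11437 in the knockout. Knockout replicate 3 lay above wild type replicate 2, and the groups were apart when either of these libraries was left out. For Uso1 the log2 fold change was −0.22 (SE 0.11, 95% interval −0.49 to 0.06, limma adjusted p = 0.993), and the exact permutation p was 0.2.

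Arf1 had values of 13029, 13284 and 12115 in the wild type (replicates 1 to 3 in order) and 12132, 10478 and 11155 in the knockout. Knockout replicate 1 and wild type replicate 3 were nearly equal, and the other libraries were separated by genotype. The log2 fold change was −0.19 (SE 0.11, 95% interval −0.44 to 0.07, limma adjusted p = 0.993). Gbf1, which loads Arf1 with GTP at the cis-Golgi, had values of 5662, 5643 and 6399 in the wild type (replicates 1 to 3 in order) and 5410, 4751 and 5660 in the knockout. Knockout replicate 3 matched the lower wild type libraries. Its log2 fold change was −0.16 (SE 0.11, 95% interval −0.42 to 0.09, limma adjusted p = 0.993), and the exact permutation p was 0.2 for Arf1 and for Gbf1. The log2 value of Gbf1 was −0.09 when knockout replicate 2 was left out and −0.10 when wild type replicate 3 was. Gbf1 exons share 2.73% of their bases with the opposite-strand gene Gm16726.

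**Figure D3:**
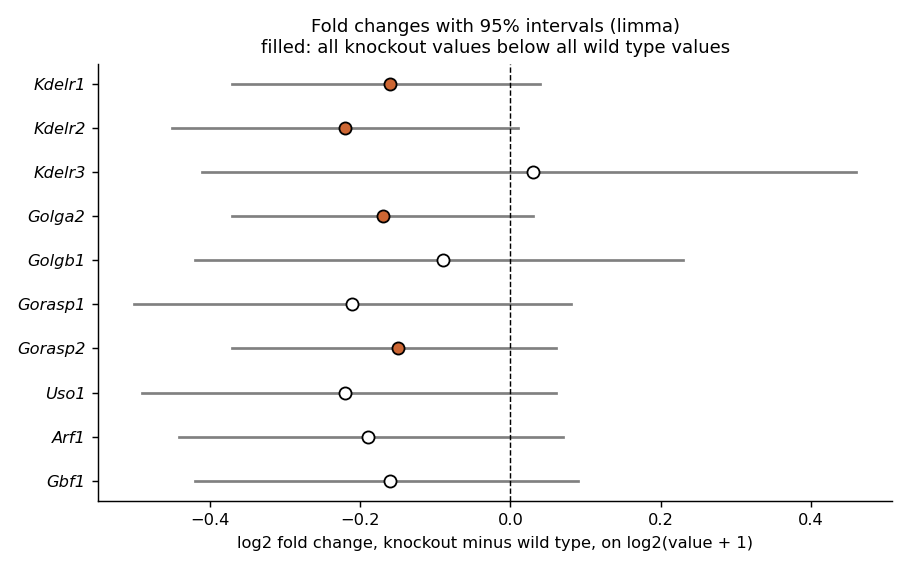
Log2 fold changes, knockout minus wild type (horizontal axis), of the 10 genes with limma's 95% intervals as lines. Filled points mark the 4 genes whose groups do not overlap, and every interval includes 0, the widest being that of Kdelr3 from −0.41 to 0.46.

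The library with the lowest value was most often knockout replicate 2. It was lowest for 6 of the 10 members, where it was lowest for 15.5% of all genes tested, and it lay below the wild type mean for all 10. Its median member level was −0.23 on the log2 scale relative to the wild type mean, against −0.13 in knockout replicate 1 and −0.10 in knockout replicate 3. Wild type replicate 3 was highest for 7 members, where it was highest for 15.7% of all genes. Knockout replicate 2 had an acinar share of 6.93% and the largest alpha cell share, 2.84%, where the other libraries had 0.724% to 1.62%. Wild type replicate 3 had the largest beta cell share, 15%. The part of the beta, alpha, delta and PP, endothelial and lymphocyte shares in the members' levels was not tested. For acinar cells the only test was a covariate, the mean log2 level of the tested markers in place of their share. The median log2 fold change of the members was then −0.17, as without it.

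**Figure D4:**
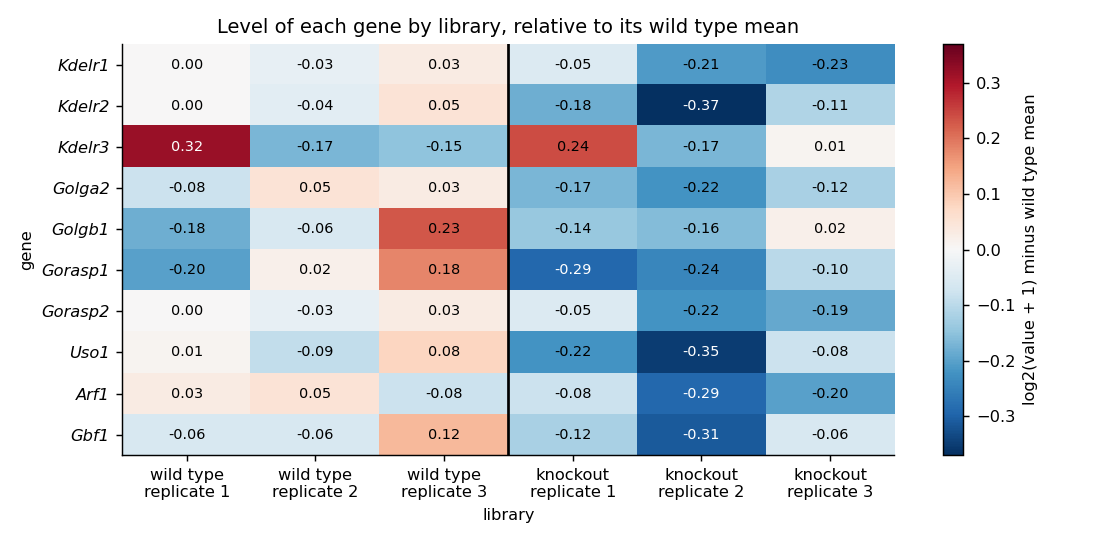
Level of each gene (rows) in each library (columns) as log2(value + 1) minus the gene's wild type mean, blue below and red above it. The column of knockout replicate 2 is below the wild type mean for all 10 genes, and Kdelr3 stands high in replicate 1 of both genotypes.

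Levels were compared between members per kilobase of exon, with union exon lengths from GENCODE M21. In wild type libraries Arf1 was highest at 6132 ± 294 (SD, n = 3), followed by Kdelr2 at 2677 ± 86.5 and Uso1 at 2063 ± 126. Gorasp2 at 1721 ± 36.7 and Kdelr1 at 1699 ± 38.8 came next and did not differ beyond their spread. Golgb1 followed at 1007 ± 151, although by counts per gene it ranked near the top because its exons span 11.86 kb. Golga2 (792 ± 38.4) and Gbf1 (544 ± 39.7) lay below it, and Gorasp1 (310 ± 40.8) and Kdelr3 (301 ± 60.8) were lowest and overlapped. In knockout libraries the order was the same except that Kdelr3 (305 ± 43.8) stood above Gorasp1 (266 ± 18.3), with overlapping values, and Uso1 also overlapped Gorasp2.

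The gene whose pattern over the 6 libraries was closest to Kdelr1 was another member, Gorasp2. The root-mean-square difference of their log2 values, each centred on its mean, was 0.016, where the spread of Kdelr1 itself was 0.103. Reep5 and Ier3ip1, which encode ER membrane proteins, followed Kdelr1 at 0.023 each. The genes closest to Kdelr2 were Mfap3 (0.023), Ncoa4-ps (0.027) and Zfp507 (0.027), of which Ncoa4-ps is a pseudogene whose reads may belong to its parent, and those closest to Kdelr3 were Tmem208 (0.045), Cars (0.047) and Sorl1 (0.048). Within a difference of 0.05 lay 31 genes for Kdelr1, 29 for Kdelr2 and 3 for Kdelr3.

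Related genes of the Golgi and of retrieval had medians from −0.15 to −0.02, and limma called 0 in each list. A negative log2 fold change was found for 50.6% of all genes tested and 64.6% of those with a mean of 1000 or more. Of 9 COPI coat genes, which build the retrieval vesicles, 8 were on the lower side, with a median of −0.15, and Copz1 had −0.25 (SE 0.09). All 8 genes of the COG complex, a tether of vesicles within the Golgi, were on the lower side, with a median of −0.14, and Cog7 had −0.22 (SE 0.12). Of 8 other golgins, 7 were on the lower side, with a median of −0.10, and Golga4, a golgin of the trans-Golgi, had −0.24 (SE 0.13).

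Of 12 Golgi SNARE, fusion and Rab1 genes, 11 were on the lower side (median −0.10), with Scfd1, a regulator of Golgi SNAREs, at −0.26 (SE 0.12) and the SNARE Ykt6 at −0.17 (SE 0.09). Of 10 Arf exchange factors and activating proteins, 7 were on the lower side (median −0.11, range −0.26 to 0.18). Arfgef2, which activates Arf at the trans-Golgi, had −0.26 (SE 0.10), and Cyth3 had 0.18. The other 7 Arf family genes had a median of −0.03, with 5 on the lower side, and Arf2 had 0.06 (SE 0.12). Arf3, the closest relative of Arf1, had −0.17 (SE 0.10) and had all knockout values below all wild type values. That pattern was found in 5.22% of all genes tested and 9.29% of those with a mean of 1000 or more. Among the related Golgi lists, 3 of 9 COPI coat genes and 3 of 10 Arf exchange factors and activating proteins had it. So did 2 of 12 Golgi SNARE, fusion and Rab1 genes and 1 of 8 other golgins. It was found in 0 COG complex genes and 0 partners of GRASPs and golgins. The 8 partners of GRASPs and golgins had a median of −0.02, with 7 on the lower side. Rab2a had −0.09 (SE 0.09) and Tmed10, a p24 cargo receptor, −0.11 (SE 0.10).

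**Figure D5:**
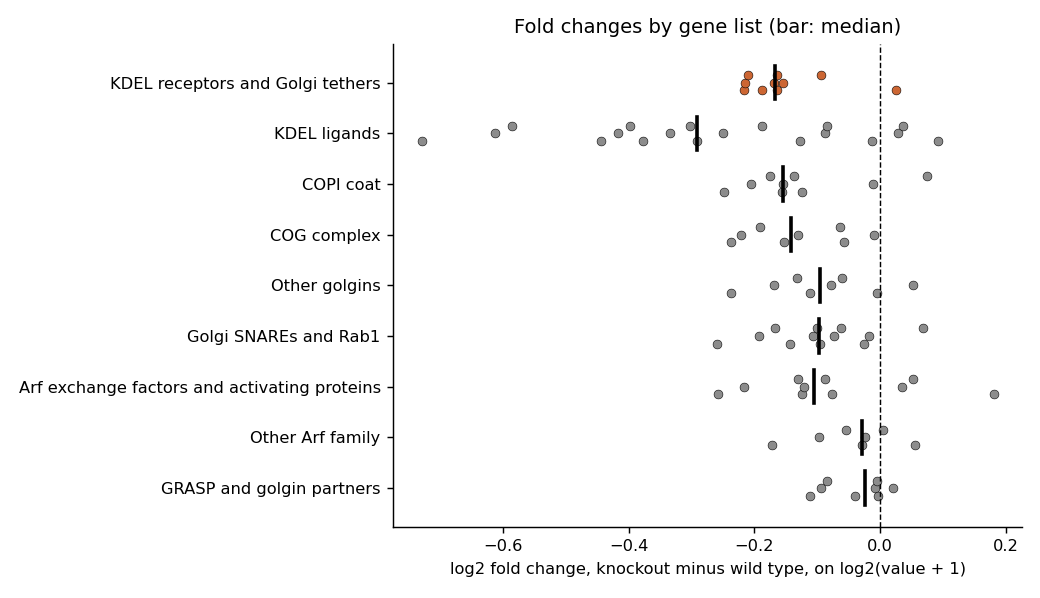
Log2 fold changes, knockout minus wild type (horizontal axis), of single genes (points) in the 10 members and 8 related lists, with the median of each list as a bar. The members cluster around a median of −0.17, between the KDEL ligands at −0.29 and the COPI coat at −0.15, and Kdelr3 is the one member right of 0.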

How the data were processed

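Islet RNA of 6 libraries was measured by sequencing. The submitters' processing notes name HISAT2 as a tool, and no version, counter, strand option or build is given in the sources used here. What the authors deposited is a signal value per gene and library, equal to a read count after division by that library's size factor. This was checked on the values: 100% were whole multiples of the library's step within 0.01 reads, so recovered reads could be used in count tests. Every gene in the table has a read in every library. The test was run on genes reaching a value of 10 in 3 or more libraries, and a fold change on log2(value + 1) understates changes of low genes. Limma 3.58.1 (R 4.3.3, mean-variance trend) was the main test, two-sided with Benjamini-Hochberg adjustment over all genes at 0.05. EdgeR 4.0.16 and DESeq2 1.42.0 were alternatives on recovered reads. The limma, edgeR and DESeq2 fits were tested on simulated counts, and the other steps were not. Exon lengths came from GENCODE M21 and promoters from RefSeq (GRCm38.p6), both matched by symbol. The build of the authors' alignment may differ, so promoter coordinates are those of the RefSeq table.

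Named were all members, Sec16b, up to 4 genes of smallest p per list, 4 fixed ligand genes and the 3 genes most like each receptor, predicted genes skipped. Not every one of these is printed. The 8 motifs were not in that plan. Members and lists were chosen with earlier results of these data known. Replicate libraries differed by far more than sampling noise (chi-square per degree of freedom 49.9 or more), so none was counted as a duplicate.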

Additional observations from a re-analysis of the deposited data

How the results depend on the processing

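Limma, edgeR and DESeq2, pseudocounts of 0.5 and 5, no filter, total-count and TMM scaling, no variance trend, a replicate block, an acinar covariate and leaving out each library all called 0 members. Over all genes, DESeq2 called 12, where each other alternative called 0. The members' median log2 fold change was −0.24 with total-count scaling, which moved the median of all genes to −0.07, and from −0.19 to −0.14 with single libraries left out. The sign of Kdelr3 turned with total-count scaling (−0.05), with the acinar covariate (−0.02) and with 3 single libraries left out. Over the 6 fits that leave out a library, Kdelr3 ran from −0.08 to 0.19. Golgb1 ran from −0.18 to 0.02 and turned only without wild type replicate 3. Leaving out a library leaves 2 in its genotype. The other 8 members kept a negative sign in every alternative.

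Samples with the same replicate number did not all deviate together (correlations over genes of 0.43, 0.00366 and 0.365). Deviations from a mean of 3 libraries are tied to each other, so these values do not settle whether the numbers pair the samples. With the replicate block the median was −0.17 and 0 genes were called. The genes at an unadjusted p under 0.05 went from 494 to 864 in limma, and Kdelr2 was the 1 member among them (limma adjusted p = 0.837). Replicates 1 and 3 of each genotype correlated best with their own number, and replicate 2 of neither genotype did. With 3 libraries per genotype, limma's 95% interval included 0 for every member, so no single member was shown to differ between genotypes.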
